A study of Mus musculus with 44 samples.

Results

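The genes described are 10 factors that remove maternal mRNA, taken by name from the table of all genes. They are the deadenylase adaptor *Btg4*, the CCR4-NOT nucleases *Cnot6l*, *Cnot7* and *Cnot8*, the *Pan2* and *Pan3* subunits, the RNA readers *Zfp36l2* and *Ythdf2*, and the decapping factors *Dcp1a* and *Dcp2*. All 10 were found among the 35269 genes of the table, and all 10 were among the 16412 genes that passed the filter on low values. They were measured by RNA-seq of 44 single two-cell mouse embryos (C57Bl/6, natural matings, embryonic day 1.5) from 6 litters of 3 crosses. The 14 WT embryos were Dppa2/4+/+ and came from control females and WT males (10 and 4 per litter). The 15 HET1 embryos were Dppa2/4+/− and came from cKO females and WT males (7 and 8 per litter). The 5 HET2 embryos (4 and 1 per litter) were Dppa2/4+/−, the 10 HOM embryos (3 and 7 per litter) were Dppa2/4−/−, and both came from the same litters of cKO females and HET males. In cKO females Zp3-Cre deleted *Dppa2* and *Dppa4* in growing oocytes, so HET1, HET2 and HOM embryos all lacked the maternal store and each litter came from a separate mating. The authors told HET2 and HOM embryos apart by their *Dppa2* and *Dppa4* transcripts.

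The oocyte stores mRNA that directs development until the embryonic genome is transcribed, and most of this mRNA is destroyed between oocyte maturation and the end of the two-cell stage. Removal starts with shortening of the poly(A) tail by the PAN2-PAN3 and CCR4-NOT deadenylases, after which the cap is removed by DCP2 with its activator DCP1A and the body is digested. Selectivity comes from adaptors. BTG4, which is itself translated from a stored mRNA at oocyte maturation, brings CCR4-NOT to mRNAs that are being translated, ZFP36L2 binds AU-rich elements, and YTHDF2 binds m6A. Many dormant oocyte mRNAs carry a cytoplasmic polyadenylation element near their end, through which the tail is lengthened at maturation.

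In the table (GRCm38) *Btg4* lies on chromosome 9 from 51060901 to 51119875, *Cnot6l* on chromosome 5 from 96070333 to 96164171, *Cnot7* on chromosome 8 from 40492540 to 40515847 and *Cnot8* on chromosome 11 from 58104153 to 58118594. *Pan2* lies on chromosome 10 from 128303335 to 128321358, *Pan3* on chromosome 5 from 147430161 to 147548502 and *Zfp36l2* on chromosome 17 from 84183931 to 84187947. *Ythdf2* lies on chromosome 4 from 132184912 to 132212303 and *Dcp1a* on chromosome 14 from 30479535 to 30527063. All 10 genes are protein-coding, and their merged exons cover 2556 (*Btg4*) to 14955 bases (*Pan3*).

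The last 100 bases of each gene's longest principal transcript (GENCODE, GRCm38) were searched on the sense strand for this element, as TTTTAT or TTTTAAT, and for the polyadenylation hexamer AATAAA or ATTAAA. The element was present in 6 of the 10 genes and in 16.1% of 22342 genes searched in the same way, and the hexamer in 9 of 10 and in 72.6%. TTTTAAT can overlap AATAAA, as it does in *Pan3* and *Dcp1a*. A stretch of 30 bases is shown for the 6 genes with the element, and for *Ythdf2*, which has the hexamer alone and whose level ran opposite to that of *Btg4*. Of the 5 genes that passed the threshold between litters in 2 crosses, *Btg4*, *Pan3* and *Dcp1a* have the element and *Ythdf2* and *Dcp2* do not. Each is written 5′ to 3′ with both motifs in capitals.
Btg4, chr9:51119803-51119832, + strand: atccctTTTTATgtctttttaaaagtttga
Cnot7, chr8:40493036-40493065, - strand: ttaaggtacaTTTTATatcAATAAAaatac
Cnot8, chr11:58118551-58118580, + strand: ttatgtTTTTAATtttgtaaAATAAAgatt
Pan2, chr10:128321324-128321353, + strand: aAATAAAagtatTTTTATctcattagaaaa
Pan3, chr5:147548465-147548494, + strand: agtattTTTTAATAAAgaattgcagaaata
Dcp1a, chr14:30527015-30527044, + strand: atatttTTTTAATAAAatttcaaaaccaag
Ythdf2, chr4:132184912-132184941, - strand: catttaATTAAAaaaaatgtatgtgcatcg
The letters describe the annotated ends, and neither tail length nor use of these ends was measured. The libraries were made by oligo-dT capture, so a transcript that is absent and one whose tail is too short to be captured cannot be told apart. A level is a share of the reads of an embryo, so the amount of RNA per embryo was not measured.

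In HOM embryos *Dppa2* had 0 to 7 reads and *Dppa4* 0 to 5 reads, whereas WT embryos had at least 184 and 79 reads. The single HET2 embryo of litter 2 (HET2 replicate 5) had 814 reads of *Dppa2*, a level of 8.88 log2 RPM that lay inside the WT range of 7.67 to 9.40. Its *Dppa4* level of 5.77 lay below the lowest WT value of 6.33. HET1 embryos also reached into the WT ranges, with levels of up to 8.43 for *Dppa2* and 7.36 for *Dppa4*. Embryos had 247667 to 3163026 reads, with a median of 1770010 in WT, 528166 in HET1, 1108889 in HET2 and 803369 in HOM embryos, and about 3 reads are needed to tell a gene from 0. A level is given as log2 RPM with a common floor of 1.86, which is the value of a gene without reads in the shallowest embryo. All 8 two-cell markers were detected in each group, and their summed level ranged from 255 to 1725 RPM. Cumulus cell markers summed to between 0 and 24.9 RPM (*Fshr* at 0 throughout) and sperm markers to at most 0.706 RPM (*Tnp1* and *Tnp2* at 0 throughout). The cumulus cell marker *Star* was detected, with at least 3 reads in 16 of 44 embryos and at most 39 reads.

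Per kilobase of exon, *Btg4* had the highest and *Zfp36l2* the lowest mean level of the 10 genes in every group. In WT embryos the mean log2 RPM per kb of exon was 6.64 for *Btg4*, 6.47 for *Ythdf2*, 6.24 for *Cnot7* and 6.15 for *Cnot8*, followed by 5.48 for *Cnot6l*, 4.83 for *Pan3*, 4.32 for *Dcp2*, 3.12 for *Dcp1a*, 1.80 for *Pan2* and 0.31 for *Zfp36l2* (n = 14). Among neighbours in this order, the difference within an embryo was larger than its SD over embryos between *Cnot6l* and *Pan3*, between *Dcp2* and *Dcp1a*, between *Dcp1a* and *Pan2* and between *Pan2* and *Zfp36l2*. It was smaller than the SD for the first 4 steps, from *Btg4* to *Cnot6l*, and between *Pan3* and *Dcp2*. The order of *Btg4* and *Ythdf2* was the one given in 7 of 14 WT embryos. The SD over embryos does not cover the choice of exon length, on which the order depends. Merged exons and the longest principal transcript have 14955 and 5048 bases for *Pan3*, and 10313 and 8564 bases for *Cnot6l*. An order by transcript length was not computed. The subunits of one complex were thus unequal at the RNA level: *Pan3*, the adaptor subunit that binds poly(A)-binding protein, stood at a median of 27.5 RPM per kb and *Pan2*, the nuclease, at 4.49 RPM per kb in WT embryos.

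*Zfp36l2* was close to the detection limit, with at least 3 reads in 27 of 44 embryos, no read in 8 embryos and at most 24 reads. Its differences therefore rest on a few reads. *Pan2* had at least 3 reads in 43 embryos and none in 1 WT embryo, and the other 8 genes had at least 13 reads in all 44 embryos. Part of the *Cnot7* signal could come from the overlapping gene *Zdhhc2* on the opposite strand, with which it shares 247 exon bases, and *Zfp36l2* shares 105 exon bases with *AC132455.1*, because reads were counted without regard to strand.

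**Figure D1:**
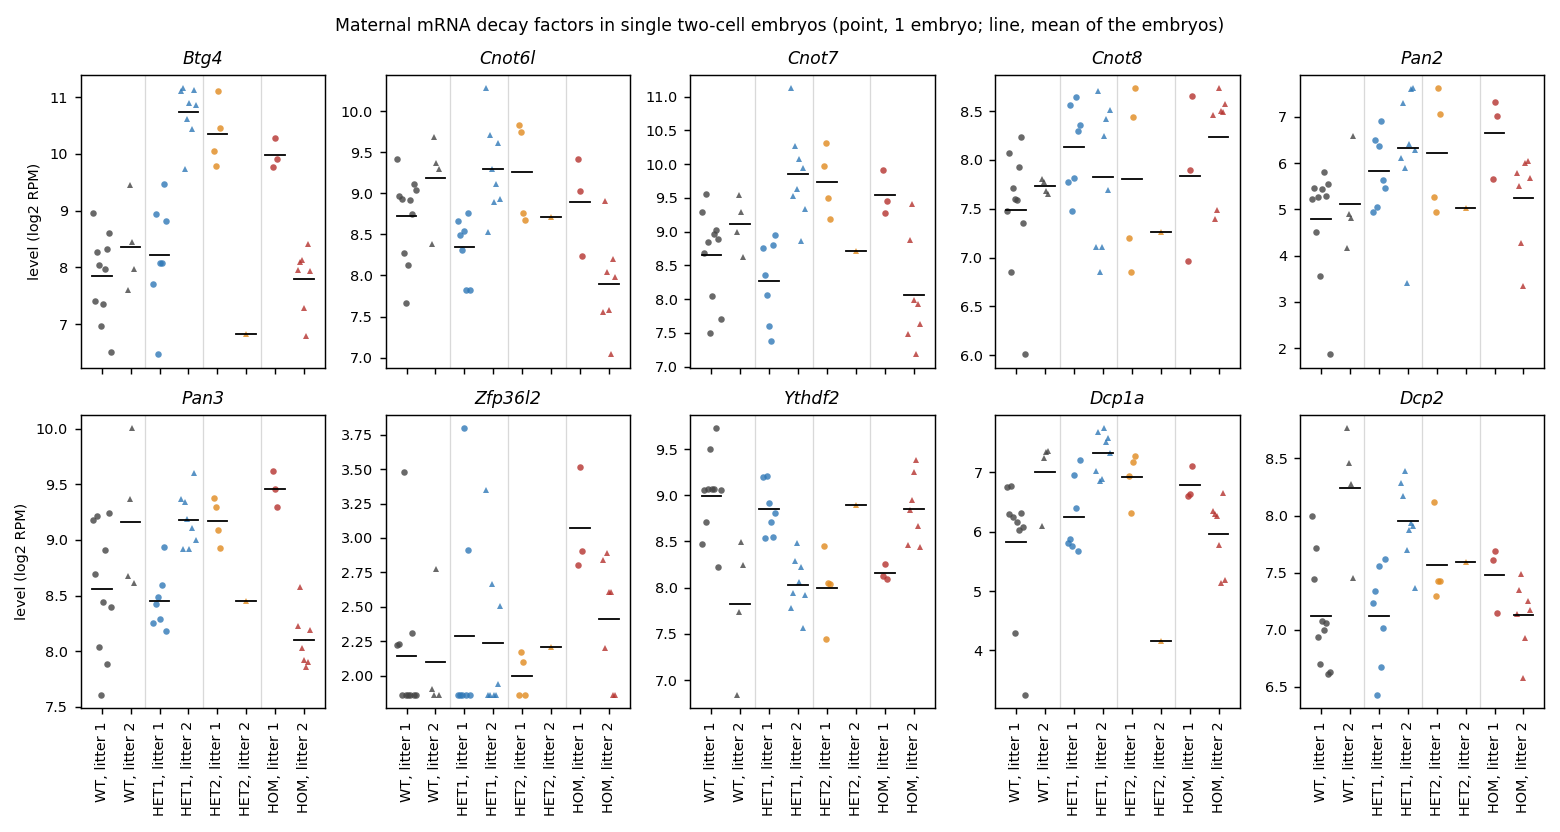
Level of each of the 10 genes (log2 RPM, vertical axis, own scale per panel) in every embryo, by group and litter on the horizontal axis; a point is an embryo (circle, litter 1, triangle, litter 2) and a line the mean. Btg4 stood at 9.74 or above in all embryos of HET1 litter 2 and of litter 1 of the HET2 and HOM embryos, and at 9.47 or below in all other embryos.

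HET1 embryos were compared with WT embryos to ask what loss of the maternal store does when a WT allele is inherited from the father. *Btg4* rose in HET1 embryos. Its level ran from 6.51 through a median of 8.01 to 9.45 log2 RPM in the 14 WT embryos, and from 6.46 through 9.74 to 11.16 in the 15 HET1 embryos. The groups overlapped, and 9 HET1 embryos were above every WT embryo while 1 was below. The difference was 1.58 ± 0.45 (log2, SE), or 2.98-fold (limma adjusted p = 0.034). It was the only one of the 10 genes to pass the threshold, where 2.49% of all genes tested were called higher and 2.05% lower.

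The rise of *Btg4* rested on HET1 litter 2. The mean was 10.74 ± 0.48 (SD, n = 8) in that litter, against 8.22 ± 0.99 (n = 7) in HET1 litter 1 and 7.84 ± 0.76 (n = 10) and 8.36 ± 0.80 (n = 4) in the WT litters. Without HET1 litter 2 the difference was 0.23 (adjusted p = 0.88), and with litter as a random effect it was 1.48 (adjusted p = 0.35). The call held under 28 of 45 alternatives (adjusted p 4e-05 to 0.99). By voom the difference was 1.24 (adjusted p = 0.052), and *Pan2* was the 1 gene of the 10 that passed. Without WT litter 1 it was 1.20 (adjusted p = 0.55). The call was also lost when HET1 replicate 8, 9, 12, 13, 14 or 15 or WT replicate 5 or 10 was left out, with adjusted p between 0.055 and 0.069. The oocyte-derived markers *Zp3*, *Gdf9*, *Bmp15*, *Nlrp5* and *Oosp1* moved with *Btg4*, with a median summed level of 2282 RPM in HET1 litter 2, 690 in HET1 litter 1, 605 in WT litter 1 and 1165 in WT litter 2. Their part in the result was not tested.

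*Pan2* had the second largest difference, at 1.21 ± 0.42 (adjusted p = 0.087), from a WT median of 5.25 (1.86 to 6.60) to a HET1 median of 6.28 (3.40 to 7.63). It passed the threshold under 4 of 45 alternatives, voom among them (1.30, adjusted p = 0.032), and its reads were few, at 0 to 123 per embryo. The other deadenylase genes differed by 0.42 ± 0.23 for *Cnot8*, 0.33 ± 0.32 for *Cnot7*, 0.11 ± 0.21 for *Pan3* and -0.00092 ± 0.24 for *Cnot6l*. *Dcp1a* differed by 0.66 ± 0.34 and *Dcp2* by 0.13 ± 0.21, *Ythdf2* by -0.25 ± 0.22 and *Zfp36l2* by 0.13 ± 0.19, and none of these 8 genes passed the threshold.

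HOM embryos, which lacked both the maternal store and any functional allele, were compared with the same WT embryos. None of the 10 genes passed the threshold by limma, where 0.0183% of all genes (3) were called, nor by limma voom on the recovered reads, where 9 genes were called. At an unadjusted p under 0.05 there were 3 of the 10 genes, against 14.5% of all genes. *Cnot6l*, whose product is a catalytic subunit needed for timely maternal decay, had 7.04 to 9.42 log2 RPM in HOM embryos (median 8.12) and 7.66 to 9.68 in WT embryos (median 8.95), a difference of -0.65 ± 0.26 (unadjusted p = 0.018, adjusted p = 0.25). Without HOM litter 2 the difference was 0.04. *Cnot8* differed by 0.56 ± 0.26 and *Zfp36l2* by 0.48 ± 0.22 (both adjusted p = 0.30). *Btg4* ran from 6.79 through 8.12 to 10.28 in HOM embryos, and its difference from WT embryos was 0.47 with a 95% interval from -0.55 to 1.48. It was -0.19 without HOM litter 1 and 1.99 without HOM litter 2. The intervals of the 10 genes were wide enough to hold differences of up to 1.72 (*Pan2*), so similar levels are not shown.

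HET2 embryos carry the same genotype as HET1 embryos but come from litters sired by HET males. The *Btg4* levels of the 5 embryos were 10.05, 9.79, 11.10, 10.46 and 6.82 log2 RPM, of which the first 4 lay above every WT embryo and the last, the embryo of litter 2, near the low end of the WT range. The difference from WT embryos was 1.66 ± 0.63 (unadjusted p = 0.012, adjusted p = 0.44). None of the 10 genes passed the threshold by limma, where 0.0305% of all genes (5) were called, nor by voom, where 17 genes were called. At an unadjusted p under 0.05 there was 1 of the 10 genes, against 8.52% of all genes. *Ythdf2* differed by -0.48 ± 0.30 and *Pan2* by 1.09 ± 0.59. The contrasts of HOM, HET1 and HET2 embryos share the WT embryos, so their values for *Btg4* (0.47, 1.58 and 1.66) are not independent of each other, and differences between them were not tested here.

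The effect of genotype within a litter could be read from HOM and HET2 embryos, which were littermates. In litter 1 the *Btg4* levels were 9.76, 10.28 and 9.91 log2 RPM in HOM embryos and 9.79 to 11.10 in the 4 HET2 embryos. In litter 2 the 7 HOM embryos had 6.79 to 8.41 and the HET2 embryo 6.82. Littermates of both genotypes overlapped, while the litters did not. With litter in the model the difference was 0.09 ± 0.43 (95% interval -0.79 to 0.96), and it was -0.37 without HET2 replicate 5. None of the 10 genes passed the threshold by limma or by voom, each of which called 3 genes (0.0183% of all genes). *Zfp36l2* (0.78 ± 0.33, unadjusted p = 0.023, adjusted p = 0.98) was the 1 gene of 10 with an unadjusted p under 0.05, against 4.81% of all genes, and *Cnot6l* had the largest negative difference (-0.51 ± 0.33, adjusted p = 0.98).

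**Figure D2:**
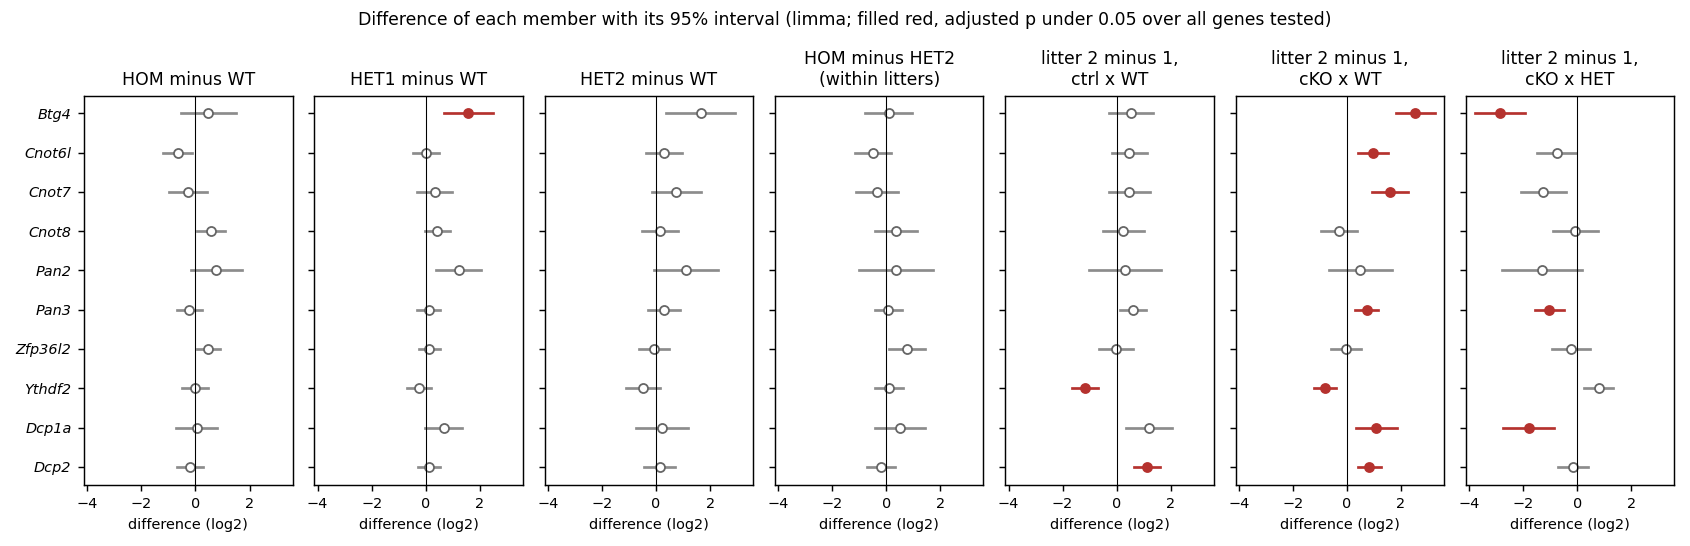
Difference in level (log2, horizontal axis) of each of the 10 genes in 7 comparisons, with 95% intervals from limma; filled red points passed an adjusted p of 0.05 over all genes tested. Of the 4 comparisons between genotypes, HET1 minus WT held 1 red point (Btg4), and the 3 comparisons between litters of a cross held 2, 7 and 3.

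Litters of the same cross were then compared with each other, in a model of 8 classes of group and litter. The largest number of calls was in the cross of cKO females and WT males, in which all embryos had the same genotype. In litter 2 of this cross 6 of the 10 genes rose and 1 fell, whereas 4.96% of all genes were called higher and 11.6% lower. When embryos were re-centred on their medians, 1263 genes were called higher and 1248 lower in place of 814 and 1907. The shares of all genes include many of low level. When only the 6919 more abundant genes (mean of 3 or more on the log2 RPM scale) were tested, 648 were called higher and 1808 lower. Of the 10 genes, 6 were again higher and 1 lower. Of these 6919 genes, 88 were higher and 81 lower between the control litters. Between the litters of cKO females and HET males, 278 were higher and 366 lower.

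*Btg4* rose most, with 9.74 to 11.16 log2 RPM in litter 2 (median 10.87) and 6.46 to 9.47 in litter 1 (median 8.07). The difference was 2.52 ± 0.36, or 5.74-fold (adjusted p = 5.5e-06). *Cnot7*, a nuclease of CCR4-NOT, had 8.86 to 11.13 in litter 2 and 7.38 to 8.95 in litter 1, with 7 of 8 embryos of litter 2 above all of litter 1. Its difference was 1.57 ± 0.33, or 2.98-fold (adjusted p = 0.00083). *Cnot6l* rose by 0.95 ± 0.28 (8.53 to 10.28 against 7.82 to 8.76, adjusted p = 0.014), and 7 of 8 embryos were above all of litter 1. Without the embryos of fewer than 500000 reads the adjusted p of *Cnot6l* was 0.17, and over 23 alternatives its difference was 0.81 to 1.30. *Cnot8*, the paralogue of *Cnot7*, differed by -0.30 ± 0.32 (adjusted p = 0.60). A test of the difference between *Cnot7* and *Cnot8* was not made.

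*Pan3* rose by 0.73 ± 0.21 (8.92 to 9.60 against 8.18 to 8.94, adjusted p = 0.013), while its partner *Pan2* differed by 0.49 ± 0.57 (adjusted p = 0.64). Both decapping factors rose, *Dcp2* by 0.83 ± 0.21 (7.36 to 8.39 against 6.43 to 7.62, adjusted p = 0.0060) and *Dcp1a* by 1.08 ± 0.37 (6.85 to 7.74 against 5.68 to 7.20, adjusted p = 0.038). Without the embryos of fewer than 500000 reads the calls of *Pan3* (adjusted p = 0.14) and *Dcp1a* (adjusted p = 0.060) were lost. Over 23 alternatives the difference was 0.67 to 1.08 for *Pan3* and 0.99 to 1.51 for *Dcp1a*. The call of *Dcp1a* was also lost without a low-value filter (adjusted p = 0.056) and when any of HET1 replicates 1, 2, 3, 5, 6, 9, 12, 13 or 14 was left out (adjusted p 0.053 to 0.074). *Zfp36l2* differed by -0.05 ± 0.27.

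*Ythdf2* fell, from 8.54 to 9.21 log2 RPM in litter 1 to 7.57 to 8.48 in litter 2. The difference was -0.81 ± 0.21 (adjusted p = 0.0057), and it was -0.47 (adjusted p = 0.19) with embryos re-centred and -0.58 (adjusted p = 0.16) with voom. The litters did not overlap for *Btg4* and *Ythdf2*, 2 of the 10 genes, where 2.99% of all genes did not overlap. Beside these values, the *Dppa2* level was 7.30 in litter 1 and 5.74 in litter 2, and the summed two-cell markers had a median of 588 and 1092 RPM. The part of these in the results was not tested, and animal, day and litter cannot be told apart.

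In the cross of cKO females and HET males *Btg4*, *Dcp1a* and *Pan3* differed between litters, whose numbers do not correspond to those of another cross. In litter 2, 3 of the 10 genes fell and 0 rose, whereas 1.71% of all genes were called lower and 1.69% higher. The differences average those of HET2 and HOM embryos. *Btg4* fell by 2.86 ± 0.45 on the log2 scale (7.24-fold, adjusted p = 0.00012), from 9.76 to 11.10 in the 7 embryos of litter 1 to 6.79 to 8.41 in the 8 embryos of litter 2. Without HET2 replicate 5, the only HET2 embryo of litter 2, the difference of *Btg4* rested on HOM embryos and was -2.18. The call of *Btg4* held under all 23 alternatives. *Pan3* fell by 1.04 ± 0.26 (adjusted p = 0.019), from 8.93 to 9.62 in litter 1 to 7.85 to 8.58 in litter 2. Its call was lost with embryos re-centred (adjusted p = 0.091) and without the embryos of fewer than 500000 reads (adjusted p = 0.052). Over 23 alternatives the difference of *Pan3* was -1.36 to -0.94. *Btg4* and *Pan3* did not overlap between these litters, 2 of the 10 genes, where 1.97% of all genes did not overlap.

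*Dcp1a* fell by 1.79 ± 0.47 (adjusted p = 0.023), from 6.31 to 7.28 down to 4.17 to 6.65, and the lowest value was that of HET2 replicate 5. Without this embryo the difference was -0.83 (adjusted p = 0.41). *Cnot7* differed by -1.25 ± 0.42 (adjusted p = 0.086) and *Ythdf2*, in the other direction, by 0.80 ± 0.26 (adjusted p = 0.084). *Cnot7* passed the threshold under 4 of 23 alternatives (lowest adjusted p = 0.033) and *Ythdf2* under 1, voom (adjusted p = 0.029). For *Ythdf2*, 7 of 8 embryos of litter 2 (8.44 to 9.38) were above all of litter 1 (7.44 to 8.45). *Cnot6l* differed by -0.77 ± 0.35 and *Pan2* by -1.31 ± 0.73, and *Dcp2* by -0.16 ± 0.27. The summed oocyte-derived markers had a median of 1785 RPM in litter 1 and 707 RPM in litter 2, and their part in the result was not tested.

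In the control cross the litters of 10 and 4 embryos differed in the decapping enzyme and in the m6A reader. In litter 2, 1 of the 10 genes rose and 1 fell, whereas 2.13% of all genes were called higher and 0.42% lower. *Dcp2* was at 8.76, 8.46, 8.28 and 7.46 log2 RPM in the embryos of litter 2 and 3 of these 4 embryos were above all of litter 1, whose median was 7.03. It rose by 1.12 ± 0.24 (adjusted p = 0.0052). *Ythdf2* was at 6.84, 7.73, 8.49 and 8.24 in litter 2 and at 8.22 to 9.72 in litter 1, a difference of -1.17 ± 0.24 (adjusted p = 0.0028). Both calls were lost without WT replicate 11, which had the highest *Dcp2* and the lowest *Ythdf2* value of its litter (adjusted p = 0.057 and 0.061), and that of *Ythdf2* also with array weights (adjusted p = 0.060). *Dcp1a* differed by 1.19 ± 0.42 (adjusted p = 0.12) and passed under re-centring and voom, and *Btg4* differed by 0.52 ± 0.41 (adjusted p = 0.67).

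The spread of several of these genes lay between litters. Of the variance over 44 embryos, 77.9% lay between litters for *Btg4*, 61.2% for *Ythdf2*, 57.6% for *Pan3*, 55.6% for *Cnot7* and 52.9% for *Dcp2*. For the other 5 genes it was 5.03% (*Zfp36l2*) to 46.1% (*Cnot6l*). The share between the 4 groups, which are fewer than the 6 litters, was 5.61% (*Dcp2*) to 26.8% (*Btg4*), and for *Zfp36l2* it was 13.1%. The median share between litters was 49.5% for the 10 genes, 28.1% for the 6919 more abundant genes (mean of 3 or more on the log2 RPM scale) and 19.4% for all genes tested. All of the 10 genes but *Zfp36l2* lay well above a mean of 3, and no comparison with genes of matched level was made.

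The genes moved in a few combinations across embryos. Because embryos of a litter are alike, correlations are given over 44 embryos and after subtraction of the litter mean, as descriptions, and all points share library and depth with each other. *Cnot6l* went with *Cnot7* (Pearson r = 0.78, and 0.63 within litters) and with *Pan3* (0.78 and 0.60). *Btg4* went with *Dcp1a* (0.74 and 0.60) and with *Cnot7* (0.74 and 0.40). *Cnot8* went against *Cnot6l* (-0.56 and -0.62) and with *Pan2* (0.55 and 0.60), so the paralogues *Cnot7* and *Cnot8* were not alike (-0.33 and -0.38). *Ythdf2* went against *Btg4* (-0.66 and -0.37), *Pan3* (-0.66 and -0.30) and *Dcp2* (-0.63 and -0.25), more over all embryos than within litters. With the summed oocyte-derived markers, r was 0.91 (0.81 within litters) for *Btg4* and -0.79 (-0.55) for *Ythdf2*. With the summed two-cell markers it was 0.76 (0.61) for *Btg4*, -0.28 (-0.02) for *Ythdf2* and 0.47 (0.62) for *Cnot8*. With total reads it was -0.23 (-0.09) for *Btg4* and 0.14 (0.17) for *Ythdf2*, and it was -0.49 (-0.44) for *Cnot8* and -0.33 (-0.22) for *Pan2* against 0.31 (0.44) for *Cnot6l* and 0.19 (0.41) for *Cnot7*. The part of depth in these correlations was not tested.

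**Figure D3:**
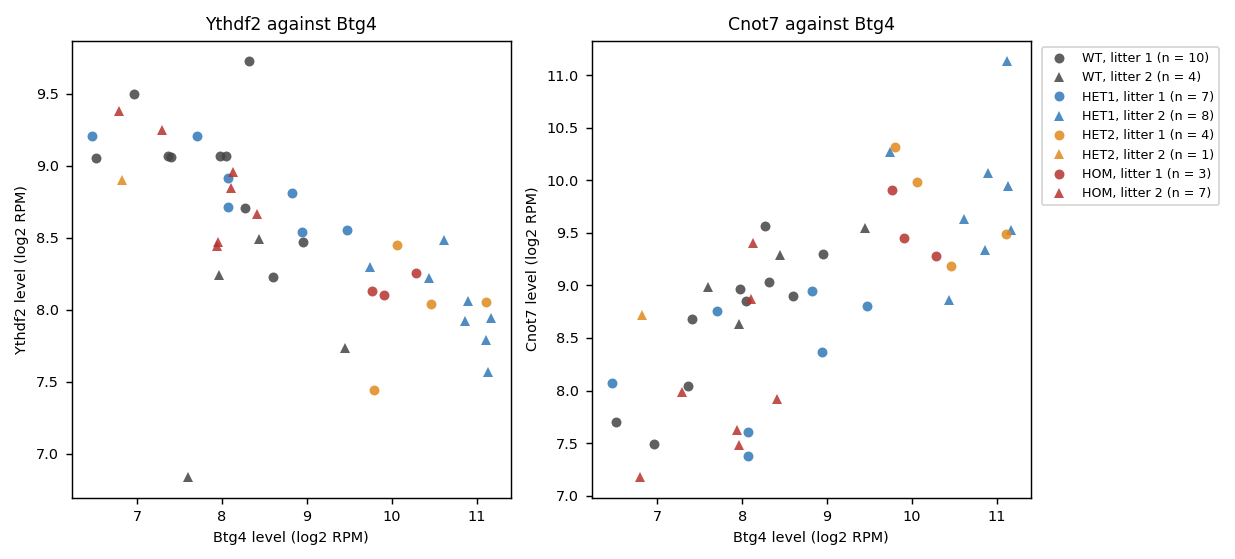
Level of Ythdf2 (left) and Cnot7 (right) against that of Btg4 in 44 embryos (all axes log2 RPM); colour is the group, circles are litter 1 and triangles litter 2. Embryos with Btg4 at 9.74 or above came from 2 litters and had Ythdf2 between 7.44 and 8.48.

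Among the 6919 more abundant genes, those most like *Btg4* over 44 embryos were *Gm11381* (r = 0.95, and 0.81 within litters), *Wee2*, an oocyte kinase that keeps meiosis arrested (0.95 and 0.86), and *Mphosph6*, an exosome-associated protein (0.94 and 0.81). Those most like *Cnot7* were *E2f5*, *Tiparp* and *Ube2d3* (0.88, 0.87 and 0.86), and those most like *Cnot6l* were *Fmn2*, *Osbpl8* and *Kbtbd8* (0.85, 0.84 and 0.83), of which *Fmn2* encodes an actin nucleator of the oocyte spindle. *Cnot8* was most like *Thoc3*, *Cenpa* and *Thap11* (0.87, 0.87 and 0.86), with similar values within litters (0.86, 0.87 and 0.86). *Pan2* was most like *Pacsin2*, *Dtx2* and *Cox10* (0.87, 0.85 and 0.85), and *Pan3* most like *AU015836* and *Zfp560* (0.83 and 0.82). *Ythdf2* was most like *Larp4*, a poly(A)-tail protecting protein, *Set* and *Slc25a36* (0.89, 0.86 and 0.84). *Dcp1a* was most like *Angel2*, *Zbed3* and *Ipo8* (all 0.83), and *Dcp2* most like *Otud4*, *Lsm14a*, a P-body protein, and *Map2k1* (0.78, 0.77 and 0.76). For *Zfp36l2* the highest values were 0.47 (*Tbck*) and 0.40 (*Elavl1* and *Ptbp3*), at few reads.

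The rest of the decay machinery was read from 6 lists of 86 genes that exclude the 10 genes above. Those with the highest levels were *Cnot1* (7.54 ± 0.50 log2 RPM, SD, n = 44), *Tob2* and *Cnot9* among CCR4-NOT subunits and adaptors, *Angel2* (8.81 ± 0.76), *Pabpn1* and *Pabpc1* among poly(A) tail genes, and *Eif4enif1* (8.39 ± 0.45), *Lsm14a* and *Xrn2* among decapping and 5′ decay genes. In the exosome, reader and maternal lists they were *Ttc37* (7.15 ± 0.73), *Mtrex* and *Dis3*, *Pum2* (8.23 ± 0.49), *Ythdf3* and *Igf2bp3*, and *Bmp15* (8.98 ± 1.02), *Oosp1* and *Kit*. By limma and by voom, 0 of 86 genes passed the threshold in HOM minus WT, HET2 minus WT and HOM minus HET2 within litters, and 10, 7 and 5 had an unadjusted p under 0.05, against 14.5%, 8.52% and 4.81% of all genes. Between HET1 and WT embryos 3 of 86 passed the threshold as higher and 4 as lower, beside 2.49% and 2.05% of all genes, and by voom 9 and 1. With embryos re-centred they were 4 and 5, and with the deposited values, whose floor moves with depth, 17 and 5. Over all 16412 genes, 1765 were called higher and 455 lower by voom. These counts were 392 and 597 with embryos re-centred, and 3505 and 549 with the deposited values. With litter as a random effect none of the 7 passed (adjusted p = 0.23 to 0.51), at differences close to those of the model without it (2.47 for *H1foo*, 0.80 for *Angel2*, -0.67 for *Pum2*, -0.72 for *Dis3* and -0.74 for *Exosc9*). None passed without HET1 litter 2 either (adjusted p = 0.085 to 0.55), where *Pum2* differed by -0.61, *Dis3* by -0.47, *Exosc9* by -0.41 and *Angel2* by 0.42. The linker histone *H1foo*, a maternal transcript, differed by 2.52 ± 0.53 (adjusted p = 0.0047, and 0.23 with litter as a random effect), from a mean of 3.00 to 5.52 log2 RPM, and without HET1 litter 2 by 1.40 (adjusted p = 0.27). *Angel1*, a deadenylase-like protein, differed by 1.79 ± 0.46 (adjusted p = 0.017, and 0.39 with the random effect), and by 2.13 without that litter (adjusted p = 0.085). *Exosc3*, a subunit of the RNA exosome, differed by -1.14 ± 0.30 (adjusted p = 0.019, and 0.33 with the random effect), and by -0.38 without that litter (adjusted p = 0.44). The other 3 genes called lower were *Dis3* (-0.79), *Exosc9* (-0.76) and *Pum2* (-0.62), and the other gene called higher was *Angel2* (0.86), named here with their values seen.

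Between the litters of cKO females and WT males, 9 of the 19 genes of the list of RNA exosome subunits, exosome cofactors and terminal uridylation enzymes fell in litter 2 and 1 rose, beside 11.6% and 4.96% of all genes, with a median difference of -1.33 against -0.06 over all genes tested. Most genes of this list belong to the 6919 more abundant genes. When these were tested alone, 1808 fell and 648 rose, with a median of -0.38. The shares of all genes therefore make the list stand out more than a comparison with abundant genes would. With embryos re-centred 5 of the 19 list genes fell and 2 rose (median -1.05), and by voom 4 fell and 1 rose (median -0.99). *Wdr61*, a subunit of the exosome's SKI cofactor, fell by 1.92 ± 0.49 on the log2 scale (adjusted p = 0.0057), while *Oosp1*, an oocyte-secreted protein, rose by 2.70 ± 0.36 (adjusted p = 3.3e-06) and *H1foo* by 2.12 ± 0.62 (adjusted p = 0.016). Of all 86 genes 7 rose and 14 fell, whereas 13 rose and 6 fell with embryos re-centred, and 7 rose and 5 fell by voom. Over all 16412 genes, 1263 rose and 1248 fell with embryos re-centred, and 922 rose and 1094 fell by voom. Of 14 decapping genes 3 rose and 0 fell. Of 15 further CCR4-NOT subunits and adaptors 0 rose and 1 fell, with a median of -0.11 that was 0.24 with embryos re-centred and 0.15 by voom, whereas *Cnot6l* and *Cnot7* had risen in these embryos.

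Between the litters of cKO females and HET males, 3 of 12 maternal transcripts, some of which are also among the oocyte-derived markers, fell and 0 rose, with a list median of -1.45 against 0.00 over all genes. *Oosp1* fell by 2.34 ± 0.45 and *Bmp15* by 1.96 ± 0.54 on the log2 scale (adjusted p = 0.0018 and 0.033). Of the remaining lists, 1 of 14 decapping genes and 1 of 10 poly(A) tail genes fell, and 1 of 16 reader genes rose. In all, 1 of 86 genes rose and 5 fell, beside 1.69% and 1.71% of all genes. With embryos re-centred 3 rose and 7 fell. By voom 5 rose and 5 fell, among them 3 genes of the exosome list that rose, while none of the decapping genes was called. Over all 16412 genes, 415 rose and 367 fell with embryos re-centred, and 730 rose and 584 fell by voom. In the control cross 5 of 86 genes rose and 1 fell, beside 2.13% and 0.42% of all genes, among them the P-body gene *Lsm14b* (1.88 ± 0.41, adjusted p = 0.0059), *Kit* (1.84 ± 0.35, adjusted p = 0.0011) and *Zfp36l1*, a paralogue of *Zfp36l2* (1.39 ± 0.24, adjusted p = 0.00027, from a mean at the floor of 1.86).

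**Figure D4:**
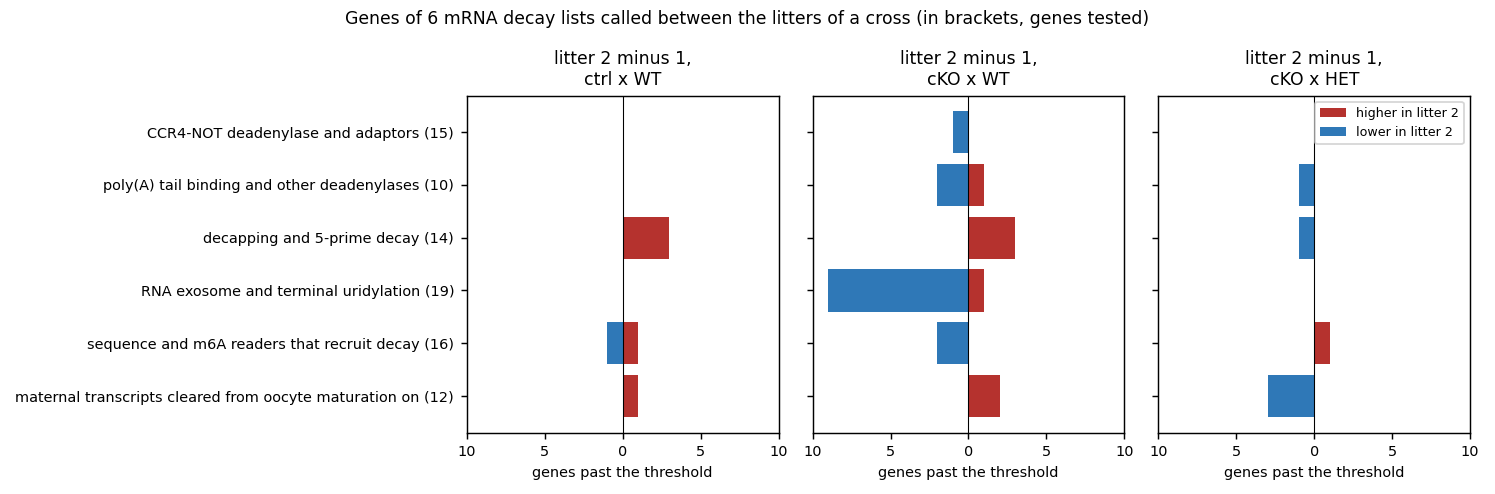
Number of genes past an adjusted p of 0.05 (horizontal axis; right, higher in litter 2, left, lower) in each of 6 decay lists (vertical axis), for the 3 crosses. The exosome and uridylation list had 9 genes lower in litter 2 of cKO females and WT males and 0 called in either direction in the other crosses.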

How the data were processed

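Single embryos had been amplified by Smart-seq2 and sequenced on a NextSeq500 (75 bp paired-end). The authors trimmed reads (Trim Galore 0.6.5, cutadapt 2.3), mapped them to GRCm38 (HISAT2 2.1.0), kept those with a MAPQ of at least 20 and counted them over 35269 genes with SeqMonk, ignoring strand. As deposited, the values are log2 RPM, and a gene with 0 reads was given 0.9 read (-1.81 to 1.86 depending on depth). Reads behind each value were recovered from this step (99.9997% of values within 0.05 of a whole read). Values under 1.86 were set to 1.86, and 16412 genes with a mean deposited log2 RPM of at least 0 were tested with limma 3.58.1 (R 4.3.3; lmFit, and eBayes with trend) at a Benjamini-Hochberg adjusted p of 0.05 over all of them. The 4 groups, the 6 litters with genotype, or the 8 classes of group and litter formed the model. The procedure was tested on simulated counts, drawn independently for each embryo and without differences between litters. The simulation therefore does not bear on the use of littermates as replicates. Every embryo was treated as a replicate, although embryos of a litter share parents. Read numbers cover counting error alone, because PCR copies were not told apart by molecular identifiers.

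The 10 genes and the lists were chosen with earlier results of these data known. Genes named are the 10, *Dppa2* and *Dppa4*, the 3 list genes per comparison with the largest called difference, the 3 most abundant of a list, and the 3 genes most correlated with each of the 10. Of the genes this rule names, 2 are not reported here. Sequences come from the GENCODE annotation and transcripts of GRCm38. The 30-base windows around motifs were taken from transcript ends, and the window of the gene on chromosome 18 is not shown. Alternatives covered the floor, filter, scaling, voom, weights, litter, mating number and leaving out embryos or litters, the single-embryo ones for HET1 and for the litter comparisons being chosen after seeing the data. Figures were drawn with matplotlib 3.10.9.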

Additional observations from a re-analysis of the deposited data

Results flagged for a closer look

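In 80 sets of 4 to 10 embryos (10 genes in 8 groups or litters), 5 had an extreme embryo farther from its neighbour than Dixon's 95% limit, where chance gives about 1 in 20. The lowest *Dcp1a* value of WT litter 2 was 6.10 log2 RPM (WT replicate 11, 73 reads, against a litter median of 7.30). The lowest *Pan2* value of HET1 litter 2 was 3.40 (HET1 replicate 11, 5 reads, against 6.34). The highest *Dcp2* value of HET2 litter 1 was 8.11 (HET2 replicate 1, 592 reads, against 7.43). The highest *Zfp36l2* values were 3.48 in WT litter 1 (WT replicate 4, 24 reads) and 2.78 in WT litter 2 (WT replicate 13, 15 reads), where the medians of 1.86 and 1.88 lay at or next to the floor.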

How the results depend on the processing

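The number of the 10 genes past the threshold stayed at 0 under every alternative for HOM minus WT, HET2 minus WT and HOM minus HET2 within litters. For HET1 minus WT it was 1 and became 0 without a low-value filter, with re-centring, without the 8 embryos of fewer than 500000 reads, with litter as a random effect, with litter means and with mating number as a replicate block, and 2 with deposited values or with genes of a mean of at least 3. By voom it stayed at 1, with *Pan2* in place of *Btg4*. With 1 litter or embryo left out it ranged from 0 to 3. For the control litters it was 2, with 4 under voom, 1 with array weights and 0 to 2 with an embryo left out. For the litters of cKO females and WT males it was 7 and became 4 without the shallow embryos. It stayed within 1.5 times for the litters of cKO females and HET males, at 2 to 4. Of the 70 differences (10 genes in 7 comparisons), 32 changed sign under at least 1 alternative, none of them among the 13 called. Without HOM litter 2, HOM minus WT was 0.76 for *Cnot7* and 0.72 for *Pan3*, and without HOM litter 1 it was -0.21 for *Dcp1a*. With 1 litter left out, HOM minus WT ranged from -0.19 to 1.99 for *Btg4* and from -0.98 to 0.043 for *Cnot6l*. HET2 minus WT ranged from -1.17 to 2.36 for *Btg4* and from -0.82 to 0.35 for *Ythdf2*, which was 0.037 over litter means. *Btg4* in HOM minus HET2 within litters ranged from -0.37 to 0.98, and was -0.22 re-centred, -0.35 with voom and -1.19 with no replicate block. With the replicate block, *Btg4* in HET1 minus WT was 1.48 (adjusted p = 0.060). The mating numbers pair no animals across crosses, and the litter differences of 6919 genes correlated at 0.45, -0.42 and -0.73 between crosses. Over all genes, HET1 minus WT called 745 genes (409 higher, 336 lower), 989 re-centred (392 and 597), 2220 with voom (1765 and 455), 4054 with deposited values and 0 with litter as a random effect. Over all alternatives the number of genes called was 0 to 249 for HOM minus WT (3), 0 to 114 for HET2 minus WT (5), 2 to 89 for HOM minus HET2 within litters (3), and 169 to 938, 1118 to 2825 and 290 to 1314 for the control, cKO and WT, and cKO and HET litters (419, 2721 and 559). The median of all genes in HET1 minus WT moved from 0.05 to 0.44 with voom and to 0.61 with deposited values. The mean levels of the 10 genes in the 4 groups moved by less than 1 SD with re-centring.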
